A study of Mus musculus with 16 samples.

Results

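The 5 genes of the kainate receptor family, Grik1 to Grik5, were followed in sorted YFP+ neurons of the basolateral amygdala (BLA) and the gustatory cortex (GC). They were chosen by name from 31020 gene names, and each was found on 1 row of both expression tables. Kainate receptors are glutamate-gated cation channels built from 4 subunits. Grik1, Grik2 and Grik3 encode the low-affinity subunits GluK1, GluK2 and GluK3, which can form channels on their own, and Grik4 and Grik5 encode the high-affinity subunits GluK4 and GluK5, which need a low-affinity partner to reach the membrane. These receptors act at both sides of the synapse, where they carry slow currents and adjust transmitter release, and in the amygdala and cortex the subunit mix differs between types of neuron.

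The groups were BLA CTA, BLA taste control, GC CTA and GC taste control, with 4 libraries in each. CTA (conditioned taste aversion) mice had access to 0.5% saccharin for 30 min, followed by an injection of 0.15 M lithium chloride, which causes malaise, whereas taste control mice drank the same solution and received saline. All were male YFP-H mice (B6.Cg-Tg(Thy1-YFP)HJrs/J) at an age of 60 to 80 days, and neurons were picked by hand 4 hr after training. In this line the Thy1 promoter drives YFP in a subset of excitatory neurons, which in the BLA are projection neurons of the anterior part (BLApn) and in the GC layer 5 pyramidal neurons. Every mouse carried the transgene, and Thy1 itself is therefore no independent mark of the sorted cells. Levels are in TPM, the transcript abundance unit that gives every library the same total and is scaled for transcript length, so genes can be compared within a library. TPM keep no read counts, so the depth of the libraries is unknown and no counting interval was given. Whether the BLA and GC libraries of the same number came from the same mouse is not given in the sources used here.

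Between 15850 and 17202 entries were above 0 TPM in BLA libraries, against 17982 to 18340 in GC libraries. The 6 projection neuron markers summed to 2004 to 2632 TPM in BLA and to 2899 to 3648 TPM in GC, and the 3 anterior BLA markers to 498 to 1012 TPM in BLA and to 76.8 to 131 TPM in GC. The 4 layer 5 markers summed higher in BLA, to 555 to 667 TPM, than in GC, to 289 to 430 TPM. Most of that gap was Etv1, with a mean of 333 TPM in BLA and 57.7 TPM in GC, whereas Fezf2 averaged 91.1 TPM in BLA and 148 TPM in GC. Of the other cell types, the GABAergic list of 10 genes, taken without Cck and Npy, which projection neurons also express, summed to 7.17 to 138 TPM in BLA and to 10.1 to 116 TPM in GC. Pvalb, the marker of fast-spiking interneurons, was listed at 0 in all 8 BLA libraries and at 2.05 to 81.0 TPM in GC libraries. The 6 oligodendrocyte markers summed to 14.8 to 127 TPM in BLA and to 110 to 401 TPM in GC, and the 6 astrocyte markers to 156 to 205 TPM in BLA and to 181 to 369 TPM in GC. Nearly all of the astrocyte sum was Slc1a2, with a mean of 168 TPM in BLA and 251 TPM in GC. The median of the 6 astrocyte gene means was 0.719 TPM in BLA and 2.91 TPM in GC. The striatal and central amygdala list of 6 summed to 23.3 to 125 TPM in BLA and to 67.5 to 166 TPM in GC, the 5 microglial markers to 1.97 to 61.7 TPM in BLA and to 3.20 to 31.8 TPM in GC, the 5 vascular markers to 1.20 to 22.7 TPM in BLA and to 2.49 to 18.7 TPM in GC, and the 4 markers of other cortical layers to 10.9 to 70.3 TPM in BLA and to 53.8 to 95.4 TPM in GC. The highest microglial sum, in BLA CTA library 4, was nearly all Aif1, at 60.3 TPM. The projection neuron, anterior BLA and layer 5 sums, Pvalb and the number of entries above 0 thus moved with region without overlap, and their part in the region differences of the kainate subunits was not tested. In bulk samples such as these, fewer cells that express a gene and less RNA per cell cannot be told apart.

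The 5 genes lie on 5 chromosomes of the mouse build GRCm38. Grik5 is the shortest, at chr7:25009849-25072346 on the minus strand (62498 bp), and Grik2 the longest, at chr10:49094833-49788766 on the minus strand (693934 bp). Grik1 lies at chr16:87895900-88290265 (minus), Grik3 at chr4:125490700-125714173 (plus) and Grik4 at chr9:42518135-42944493 (minus). In the GENCODE annotation of that build, the only other gene that shares exon sequence with one of them was Gm24420, a small RNA gene whose 59 bases lie within Grik4 on the same strand. The 120 bases before the outermost annotated start are shown for the high-affinity pair, since Grik4 was at or near 0 in most BLA libraries and above 0 in every GC library, and Grik5 was high in both. Bases are from RefSeq (GRCm38.p6), 5′ to 3′ on the gene's own strand, with CG dinucleotides in capitals. They come from chr9:42944494-42944613 (minus) for Grik4 and chr7:25072347-25072466 (minus) for Grik5.
Grik4: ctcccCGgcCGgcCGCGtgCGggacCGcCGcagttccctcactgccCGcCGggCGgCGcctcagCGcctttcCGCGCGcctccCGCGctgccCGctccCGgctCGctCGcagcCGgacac
Grik5: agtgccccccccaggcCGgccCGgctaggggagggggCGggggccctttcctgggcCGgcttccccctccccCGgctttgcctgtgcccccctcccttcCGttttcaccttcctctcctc
The Grik4 stretch held 22 CG dinucleotides and the Grik5 stretch 6. Promoters of 300 bases were found in RefSeq for 4 of the 5 genes (Grik2, Grik3, Grik4 and Grik5), and these held 26, 50, 42 and 10 CG dinucleotides, against a median of 7 over 32851 mouse promoters of the same length. None of the 4 held the letters TGACGTCA, which are their own reverse complement and were present in 1.79% of all promoters. This is a description of the letters and says nothing of what binds there.

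Among the low-affinity subunits, Grik2 was the most abundant and exceeded Grik3 in 15 of 16 libraries. It was at 57.7, 29.6, 38.6 and 32.5 TPM in BLA CTA libraries 1 to 4, and at 47.6, 44.8, 41.5 and 54.8 TPM in BLA taste control libraries 1 to 4. In the GC it was at 81.5, 75.7, 64.8 and 54.0 TPM after CTA and at 112.83, 54.8, 57.8 and 55.8 TPM in taste control. The BLA values were mostly the lower ones, and GC taste control library 1 stood far above the rest. Grik2 averaged 39.6 ± 12.7 TPM in BLA CTA and 47.1 ± 5.65 TPM in BLA taste control, and 69.0 ± 12.2 TPM in GC CTA and 70.3 ± 28.4 TPM in GC taste control (SD, n = 4 each).

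Grik3 encodes the low-affinity subunit with the lowest sensitivity to glutamate. It was at 30.7, 28.6, 22.7 and 23.7 TPM in BLA CTA, against 45.1, 29.3, 41.8 and 35.8 TPM in BLA taste control. In the GC it was at 40.0, 45.1, 48.6 and 48.0 TPM after CTA, against 27.0, 42.2, 33.2 and 49.4 TPM in taste control. Training groups overlapped in both regions, in the BLA through taste control library 2 alone. The means were 26.4 ± 3.84 TPM in BLA CTA and 38.0 ± 6.95 TPM in BLA taste control, and 45.4 ± 3.92 TPM in GC CTA and 37.9 ± 9.86 TPM in GC taste control (SD, n = 4 each).

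Grik1, which in forebrain is best known from interneurons and from the amygdala, was near the floor of the tables. It was at 0.18, 0.91, 0.09 and 0.09 TPM in BLA CTA and at 6.09, 2.90, 0.23 and 0.14 TPM in BLA taste control. In the GC it was at 4.12, 0.32, 0.72 and 0.69 TPM after CTA and at 0.38, 0.19, 8.05 and 0.30 TPM in taste control. Only 2 of 8 libraries of each region reached 1 TPM, and a single library held most of the signal in both GC groups. BLA taste control library 1, the one with the most Grik1 in the BLA, also had the highest summed level of the 4 oligodendrocyte precursor markers, 20.98 TPM, against 0.03 to 0.90 TPM in the other BLA libraries, with Sox10 at 16.2 TPM. BLA taste control library 2, the next in Grik1, had the highest sum of the GABAergic list without Cck and Npy, 138 TPM. Most of that sum was Sst, at 94.49 TPM, and Gad1 was at 0.84 TPM. The highest Gad1 and Slc32a1 of the BLA libraries, 10.27 and 10.4 TPM, were in BLA CTA library 1, with Grik1 at 0.18 TPM. In GC taste control library 3, which had the most Grik1 of all, the precursor sum was 1.15 TPM, the lowest of the GC libraries, and the GABAergic sum 61.2 TPM, within the GC range, most of it Pvalb at 56.45 TPM. GC CTA library 1, with 4.12 TPM of Grik1, had a precursor sum of 9.56 TPM and a GABAergic sum of 79.4 TPM. The part of other cell types in these values was not tested.

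Of the high-affinity subunits, Grik5 was the most abundant kainate transcript on average in every group. It was at 32.9, 56.4, 74.2 and 104 TPM in BLA CTA and at 82.9, 63.3, 23.8 and 76.2 TPM in BLA taste control. In the GC it was at 78.1, 71.6, 81.4 and 86.3 TPM after CTA and at 53.9, 54.1, 117 and 72.0 TPM in taste control. The GC CTA libraries lay close together and the other groups were widely spread, with all groups overlapping. The means were 66.995 ± 30.1 TPM in BLA CTA and 61.5 ± 26.4 TPM in BLA taste control, and 79.3 ± 6.14 TPM in GC CTA and 74.3 ± 29.8 TPM in GC taste control (SD, n = 4 each).

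Grik4 divided the regions. In BLA CTA libraries 1 to 4 it was at 0.02, 1.33, 3.72 and 0 TPM, and in all 4 BLA taste control libraries it was listed at 0. In the GC it was at 6.24, 3.64, 10.99 and 10.6 TPM after CTA and at 18.2, 8.80, 4.66 and 11.2 TPM in taste control. It was thus above 0 in 3 of 8 BLA libraries, all of them CTA libraries, and in 8 of 8 GC libraries, and BLA CTA library 3 was the only BLA library to reach a GC value. The plot of TPM by library shows the 5 genes side by side.

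**Figure D1:**
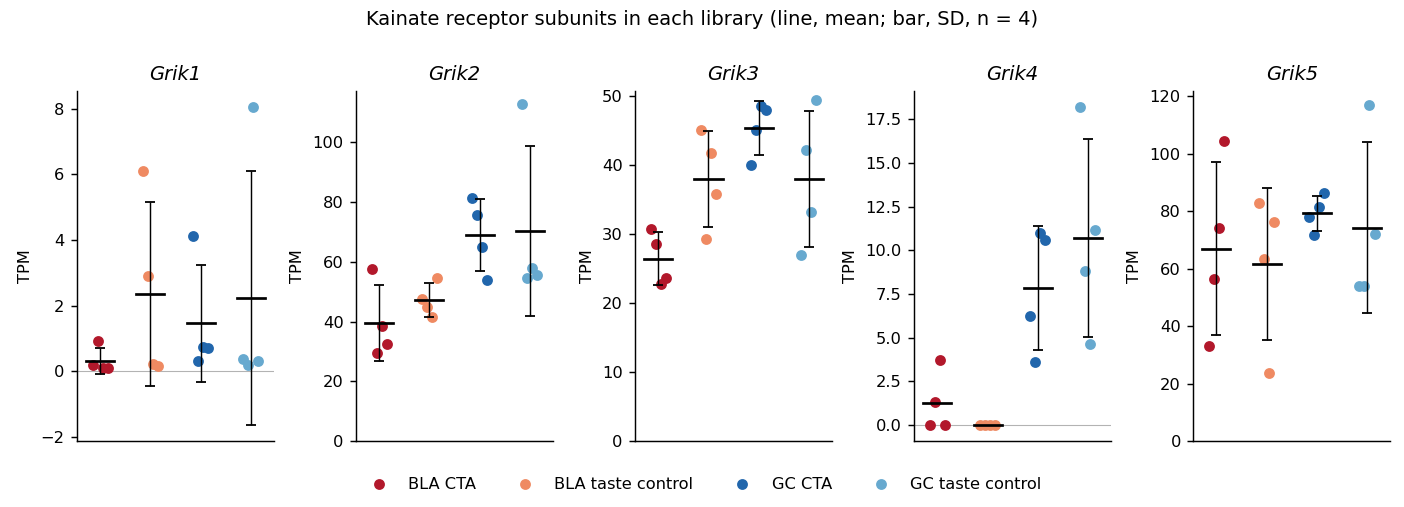
TPM (vertical axis, linear, separate for each gene) of the 5 kainate subunits in the 16 libraries, grouped from left to right as BLA CTA, BLA taste control, GC CTA and GC taste control. Points are libraries, horizontal lines are means and bars are SD (n = 4), with no bar where a library was at 0. Grik4 was at 0 to 3.72 TPM in BLA and at 3.64 to 18.2 TPM in GC, whereas Grik5 overlapped in all groups.

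Across both training groups, the order of the mean levels in BLA was Grik5 (64.3 TPM), Grik2 (43.4 TPM), Grik3 (32.2 TPM), Grik1 (1.33 TPM) and Grik4 (0.634 TPM). In GC it was Grik5 (76.8 TPM), Grik2 (69.6 TPM), Grik3 (41.7 TPM), Grik4 (9.29 TPM) and Grik1 (1.85 TPM). Grik5 exceeded Grik2 in 6 of 8 BLA libraries but in only 4 of 8 GC libraries, and the difference of 7.16 ± 34.2 TPM in GC was well within its spread (SD over libraries). Grik2 exceeded Grik3 in 7 of 8 BLA libraries and in 8 of 8 GC libraries. Grik3 exceeded Grik4 and Grik1 in all 16 libraries, so the family fell into 3 abundant and 2 scarce transcripts. The scarce pair changed places between regions, with Grik4 above Grik1 in 2 of 8 BLA libraries and in 7 of 8 GC libraries. Among genes that averaged at least 1 TPM in the region, Grik5 was higher than 81.0% in BLA and 83.4% in GC, and Grik2 higher than 72.9% in BLA and 81.9% in GC.

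The subunit mix was taken as the share of each gene in the summed TPM of the 5. These shares are sums over members and were described without a test. Grik5 made up 48.4 ± 15.8% in BLA CTA and 39.6 ± 11.6% in BLA taste control, and 39.1 ± 3.03% in GC CTA and 37.6 ± 11.6% in GC taste control (SD, n = 4 each). Grik2 made up 30.2 ± 11.9% in BLA CTA and 32.4 ± 5.11% in BLA taste control, and 34.0 ± 5.74% in GC CTA and 35.8 ± 12.05% in GC taste control. Grik3 made up 20.2 ± 5.44% in BLA CTA and 26.5 ± 8.45% in BLA taste control, and 22.4 ± 2.27% in GC CTA and 20.1 ± 7.23% in GC taste control. These 3 shares overlapped between training groups in each region and between regions in each training group. Within BLA CTA the mix itself was unstable, with Grik5 at 27.1, 48.3, 53.3 and 65.0% in libraries 1 to 4 and Grik2 at 47.5, 25.3, 27.7 and 20.2%.

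Grik4 made up 0.0164, 1.14, 2.67 and 0% in BLA CTA and 0% in each BLA taste control library, against 2.97, 1.85, 5.32 and 5.31% in GC CTA and 8.57, 5.50, 2.11 and 5.92% in GC taste control. This was the only share whose regions did not overlap, and only in taste control. Grik1 was at most 3.35% in BLA and 3.65% in GC. The ratio of high-affinity to low-affinity TPM was 1.12 ± 0.617 in BLA CTA and 0.697 ± 0.274 in BLA taste control, and 0.761 ± 0.145 in GC CTA and 0.795 ± 0.311 in GC taste control (SD, n = 4 each). All 4 ranges overlapped, and the BLA CTA range of 0.372 to 1.85 enclosed those of the GC groups.

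**Figure D2:**
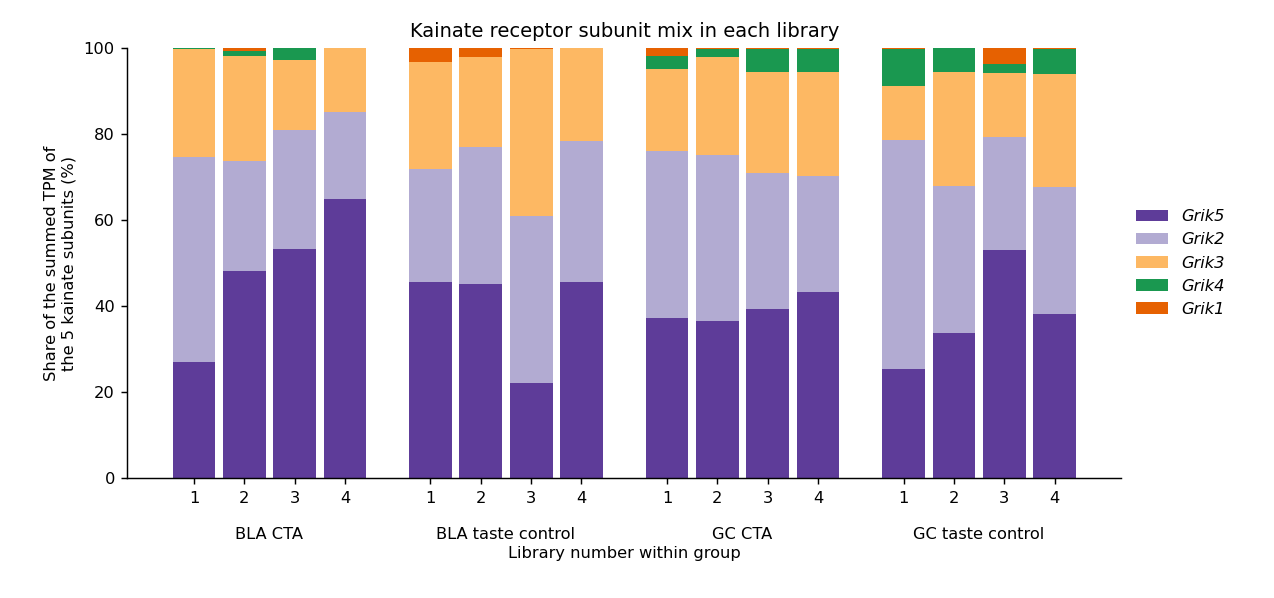
Share (percent, vertical axis from 0 to 100) of each kainate subunit in the summed TPM of the 5, with 1 stacked bar per library and libraries numbered within the groups BLA CTA, BLA taste control, GC CTA and GC taste control. The Grik4 segment reached at most 2.67% in BLA and 8.57% in GC, and the Grik5 segment varied from 22.2% to 65.0% among BLA libraries.

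The summed TPM of the 5 subunits was 122, 117, 139 and 161 in BLA CTA, against 210, 196, 207 and 200 in GC CTA, with no overlap. In taste control it was 182, 140, 107 and 167 in BLA, against 212, 160, 221 and 189 in GC, and the ranges overlapped. For scale, the 4 AMPA receptor subunits summed to 1607 ± 181 TPM in BLA CTA and 1444 ± 95.5 TPM in BLA taste control, and to 1563 ± 239 TPM in GC CTA and 1623 ± 115 TPM in GC taste control. The 7 NMDA receptor subunits summed to 661 ± 121 TPM in BLA CTA and 644 ± 99.8 TPM in BLA taste control, and to 1029 ± 107 TPM in GC CTA and 974 ± 45.3 TPM in GC taste control (SD, n = 4 each). Regions overlapped for AMPA and did not for NMDA subunits. The sums were not rescaled, and over all genes the median log2 fold change of BLA over GC was -0.25 in taste control and -0.22 after CTA. Of genes that averaged at least 1 TPM, 12.6% lay lower in BLA without overlap in taste control and 11.0% after CTA. Kainate subunits were the smallest family, with 5.62 ± 0.825% of all ionotropic subunit TPM in BLA CTA and 6.61 ± 0.924% in BLA taste control, and with 7.31 ± 0.657% in GC CTA and 7.004 ± 0.962% in GC taste control (SD, n = 4 each).

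The first comparison was whether training changed the subunits 4 hr later. In BLApn no subunit passed the test. Each gene was fitted on log2(TPM + 1) with limma across all genes that averaged at least 1 TPM in the comparison, and Benjamini-Hochberg adjusted p-values under 0.05 were called. Of 14611 genes, 0 (0%) were called, 568 (3.89%) had an unadjusted p under 0.05, and the median log2 fold change was 0.02. The log2 fold change of CTA over taste control was -0.50 for Grik3 (SE 0.31, 95% confidence interval -1.17 to 0.17), -0.29 for Grik2 (SE 0.30, interval -0.94 to 0.37), 0.15 for Grik5 (SE 0.44, interval -0.80 to 1.09) and -0.96 for Grik1 (SE 0.71, interval -2.49 to 0.57), each with a limma adjusted p of 0.999. All of these intervals held 0, and those of Grik5 and Grik1 were the widest. Grik4 was below the filter, and its values of 0.02, 1.33, 3.72 and 0 TPM in CTA overlapped the zeros of taste control (two-sided exact permutation p = 0.143).

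Grik3 came nearest to a difference between training groups in the BLA, with a mean 0.696 times that of taste control. The two-sided exact permutation test of its means gave p = 0.0571, where the smallest p that 4 against 4 libraries allow is 0.0286, and its groups overlapped. In the GC, 0 of 15278 genes (0%) were called by limma, with 573 (3.75%) at an unadjusted p under 0.05. The log2 fold changes there were 0.28 for Grik3 (interval -0.18 to 0.75), 0.03 for Grik2 (interval -0.50 to 0.56), 0.17 for Grik5 (interval -0.34 to 0.67), -0.37 for Grik4 (interval -1.31 to 0.58) and 0.01 for Grik1 (interval -1.52 to 1.53), each with a limma adjusted p of 0.9996. None of the 5 separated CTA from taste control libraries in either region, against 2.38% of all genes fitted in BLA and 2.21% in GC.

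Whether training acted differently in the regions was tested as an interaction over all 16 libraries. For Grik3 the BLA effect minus the GC effect was -0.78 on the log2 scale (SE 0.34, interval -1.49 to -0.08), with an unadjusted limma p of 0.0314 and an adjusted p of 0.9995. Of 15191 genes, 601 (3.96%) had an unadjusted interaction p under 0.05 and 0 (0%) were called, so a value of this size was common among all genes. The interaction term of Grik4 was the largest in size and the only positive one, at 1.24 (SE 0.76, interval -0.35 to 2.83, limma adjusted p = 0.9995). It rests on BLA taste control libraries all listed at 0. The term ran from 0.548 to 2.75 under the alternatives other than leaving out a library, so its size is not settled. The interaction terms of Grik2 (-0.31), Grik5 (-0.02) and Grik1 (-0.97) had intervals that held 0 as well.

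The second comparison was between regions. Because the median of all genes was itself shifted in BLA against GC, by -0.25 (taste control) and -0.22 (after CTA) on the log2 scale, values after median-ratio rescaling of the libraries, which left a median of -0.03 and -0.04, are given beside the main ones. In taste control, 1203 of 15085 genes (7.97%) were called, 276 (1.83%) higher and 927 (6.15%) lower in BLA, or 446 higher of 1022 after rescaling. Grik4 was the 1 kainate subunit called, lower in BLA, with a limma adjusted p of 0.00135 (0.00164 after rescaling), where the share of all genes called lower was 6.15%. Its BLA libraries were all listed at 0 and so no fold is given. It passed the filter through its GC libraries alone, which favours a difference among the genes that pass. In a fit of all 21379 genes with no filter the adjusted p was 0.00524, from the same zeros. The BLA group adds no spread to these fits, so none of these p-values measures the spread between BLA libraries.

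After CTA, in other libraries, 994 of 15077 genes (6.59%) were called, 258 (1.71%) higher and 736 (4.88%) lower in BLA, or 394 higher of 899 after rescaling, and none of the 4 kainate subunits fitted was among them. Grik4 had a log2 fold change of -2.18 on the log2(TPM + 1) scale (SE 0.60, interval -3.49 to -0.86), with a limma adjusted p of 0.0532, and an exact permutation p of 0.0571. After rescaling the log2 fold change was -2.02 and the adjusted p 0.0846. With 1 library left out the adjusted p ran from 0.0223, without BLA CTA library 3, which held 3.72 TPM, to 0.150. Over both training groups together, with training as a term, Grik4 was called with a limma adjusted p of 3.48e-05, where 2986 of 15191 genes (19.7%) were called, 15.4% of all lower in BLA. Here too its BLA mean of 0.634 TPM was under the filter of 1 TPM, so it passed through its GC libraries alone. With no filter the adjusted p was 0.000171, from the same BLA values at or near 0. BLA taste control, listed at 0 throughout, adds no spread to either fit, so these p-values are no evidence beyond the listed values. In an exact permutation of region within training groups Grik4 gave p = 0.000816, where the smallest possible is 0.000408. Of its 8 BLA libraries, 7 lay below the lowest GC library.

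Grik2 was not called in either training group alone. In taste control the log2 fold change was -0.50 (SE 0.27, interval -1.08 to 0.08) with a limma adjusted p of 0.295, and the groups did not overlap, but only because the highest BLA library, at 54.75 TPM, lay just under the lowest GC library, at 54.76 TPM (two-sided exact permutation p = 0.0286, the smallest possible). Of all genes fitted, 16.1% had non-overlapping regions there and 12.6% lay lower in BLA without overlap. Without GC taste control library 1, which held 112.83 TPM, the log2 fold change was -0.25 (adjusted p = 0.622), and after rescaling it was -0.26 (adjusted p = 0.609). After CTA it was -0.82 (SE 0.27, interval -1.40 to -0.23) with a limma adjusted p of 0.0982 and an exact permutation p of 0.0571, or -0.61 after rescaling (adjusted p = 0.1996). With both training groups together it was -0.66 (SE 0.19, interval -1.05 to -0.27), a limma adjusted p of 0.0158, and the call held with each of the 16 libraries left out (adjusted p from 0.00795 to 0.0372). It was not called after median-ratio rescaling, where the log2 fold change was -0.44 and the adjusted p 0.0842.

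The Grik3 values of the regions did not overlap after CTA and did in taste control. After CTA Grik3 was at 22.7 to 30.7 TPM in BLA, against 40.0 to 48.6 TPM in GC, with a log2 fold change of -0.76 (SE 0.24, interval -1.29 to -0.24), a limma adjusted p of 0.0878 and an exact permutation p of 0.0286, or -0.56 after rescaling (adjusted p = 0.216). The regions did not overlap for 14.6% of all genes after CTA, and 11.0% lay lower in BLA without overlap. In taste control its mean was 38.0 TPM in BLA and 37.9 TPM in GC, with a log2 fold change of 0.02 (interval -0.57 to 0.61) and a limma adjusted p of 0.977, or 0.26 after rescaling (adjusted p = 0.662). The test of the difference between these effects is the interaction given above, which did not pass the adjustment. Grik5 did not pass the test, with log2 fold changes of -0.35 after CTA (interval -1.03 to 0.32, limma adjusted p = 0.569) and -0.33 in taste control (interval -1.18 to 0.51, limma adjusted p = 0.670), or -0.15 and -0.09 after rescaling. Grik1 was below the filter after CTA and gave 0.25 in taste control (interval -1.50 to 2.00, limma adjusted p = 0.891), or 0.33 after rescaling.

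**Figure D3:**
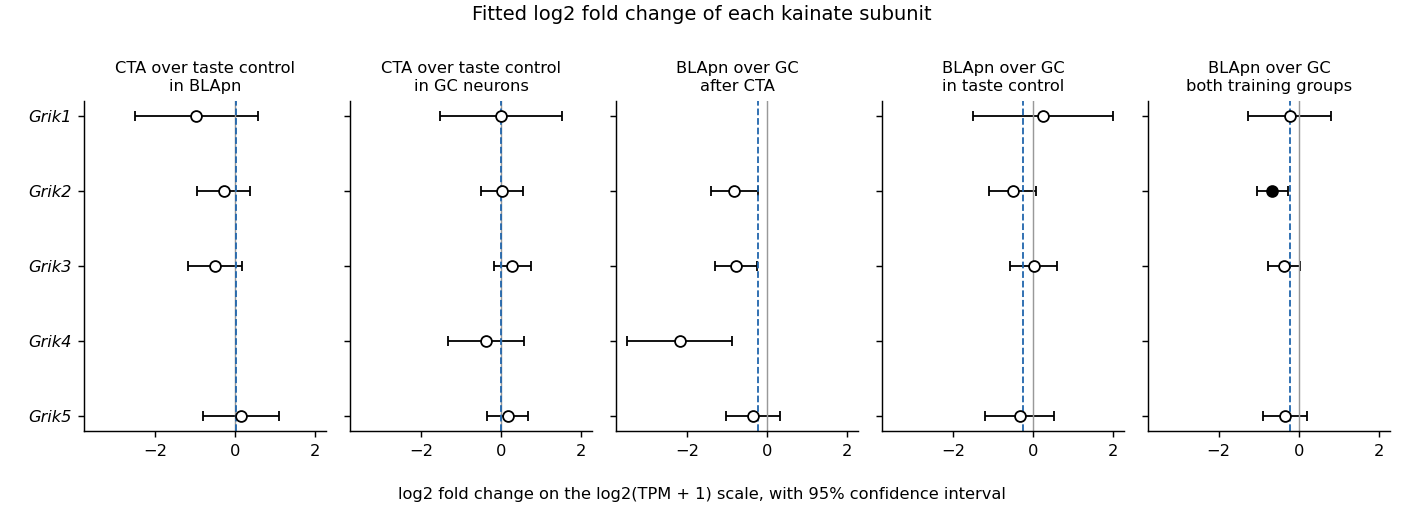
Log2 fold change (horizontal axis, log2(TPM + 1) scale) of each kainate subunit with its 95% confidence interval in 5 comparisons, from left to right CTA over taste control in BLA and in GC, and BLA over GC after CTA, in taste control and over both training groups. Filled points passed an adjusted p of 0.05, and dashed lines mark the median of all genes. Grik4 is left out where 4 libraries or more of a group were at 0, as are genes below the filter. The interval of Grik2 over both training groups ran from -1.05 to -0.27, with the median of all genes at -0.23.

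The genes that work with kainate receptors were taken from a list of 21 by role, all of which were found in the tables. Training called 0 of them in either region. Between regions, 1 was called higher and 3 lower in BLA of the 20 fitted in taste control, where 7.97% of all genes were called, and 2 higher and 3 lower of the 21 fitted after CTA, where 6.59% were. The median log2 fold change of the list was -0.13 in taste control and -0.28 after CTA, beside -0.25 and -0.22 for all genes.

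The auxiliary subunits Neto1 and Neto2 bind kainate receptors and slow their kinetics. Neto1 was at 84.3, 83.0, 104 and 79.8 TPM in BLA CTA, against 158, 203, 153 and 126 TPM in GC CTA, with no overlap and a log2 fold change of -0.85 (SE 0.20, limma adjusted p = 0.0262). In taste control it was at 80.5, 93.4, 62.0 and 144 TPM in BLA, against 202, 164, 133 and 129 TPM in GC, where library 4 of BLA reached the GC range (log2 fold change -0.76, limma adjusted p = 0.09997). After CTA, 11.0% of all genes fitted lay lower in BLA without overlap. The call after CTA was lost after median-ratio rescaling (adjusted p = 0.0883) and in 4 of 8 fits with a library left out (adjusted p from 0.0297 to 0.101), whereas over both training groups Neto1 was called with and without rescaling (adjusted p = 0.00986 and 0.00123). Neto2 averaged 42.8 ± 18.2 TPM in BLA CTA and 52.3 ± 24.9 TPM in BLA taste control, and 37.8 ± 11.997 TPM in GC CTA and 37.8 ± 12.2 TPM in GC taste control (SD, n = 4 each), and the regions overlapped.

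The secreted proteins C1ql2 and C1ql3 are known from hippocampal mossy fibre synapses of the mouse, where they bind to kainate receptors that hold GluK2 and GluK4. C1ql3 was at 1345, 677, 1049 and 1098 TPM in BLA CTA, against 163, 203, 97.0 and 111 TPM in GC CTA. In taste control it was at 698, 749, 1601 and 1449 TPM in BLA, against 169, 173, 92.1 and 146 TPM in GC. Every BLA library was above every GC library, and the BLA mean was 7.26 times as high after CTA and 7.74 times as high in taste control (limma adjusted p = 8.69e-05 and 0.000167). Of all genes fitted, 14.6% had regions without overlap, in either direction, after CTA and 16.1% in taste control. C1ql2 was scarce, at 2.81, 5.21, 0.54 and 4.90 TPM in BLA CTA, against 0 in each GC CTA library. In taste control it was at 0.64, 1.40, 1.84 and 0.83 TPM in BLA, against 0.31 TPM in GC library 1 and 0 in the others. Every BLA library was above every GC library, but C1ql2 reached the filter through BLA alone, and no test of it is given.

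**Figure D4:**
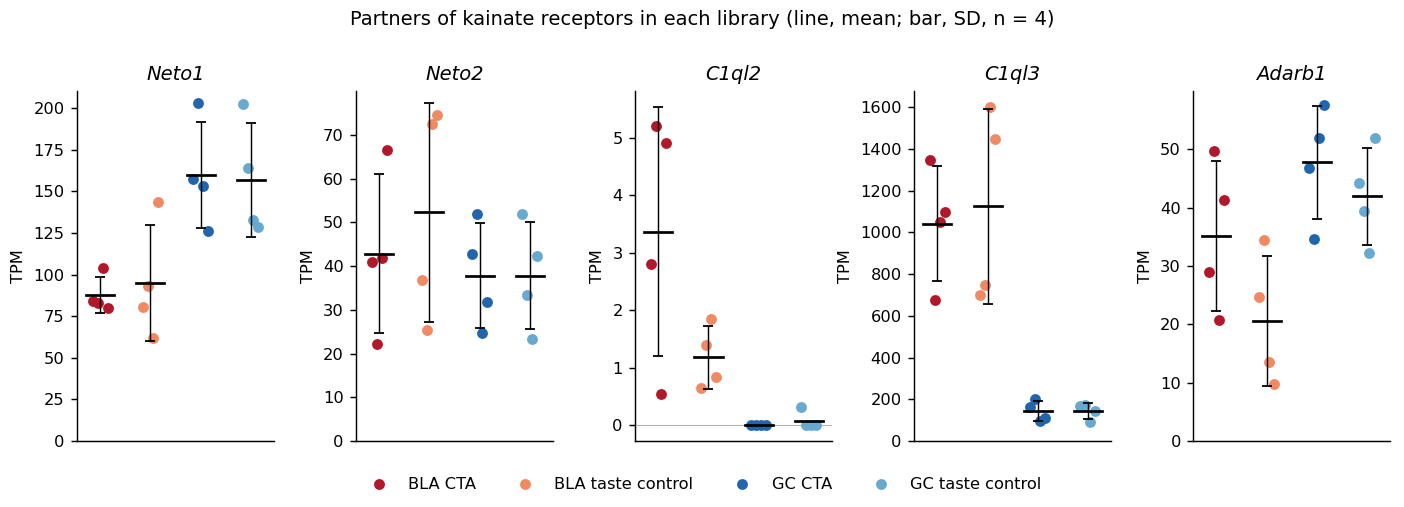
TPM (vertical axis, linear, separate for each gene) of Neto1, Neto2, C1ql2, C1ql3 and Adarb1 in the 16 libraries, grouped as BLA CTA, BLA taste control, GC CTA and GC taste control, with means as lines and SD as bars (n = 4; no bar where a library was at 0). C1ql3 was at 677 to 1601 TPM in BLA and at 92.1 to 203 TPM in GC, with no overlap.

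Adarb1 encodes the enzyme ADAR2, which edits the pore codon of Grik2 and Gria2 transcripts. It was at 28.9, 49.7, 20.7 and 41.3 TPM in BLA CTA, against 46.8, 34.7, 52.0 and 57.5 TPM in GC CTA. In taste control it was at 24.6, 34.4, 13.6 and 9.77 TPM in BLA, against 44.3, 39.3, 32.2 and 52.0 TPM in GC. Both comparisons overlapped and neither was called (limma adjusted p = 0.423 after CTA and 0.0966 in taste control). Over both training groups the log2 fold change was -0.80 with a limma adjusted p of 0.0311, which was 0.124 after median-ratio rescaling, 0.0851 after quantile normalization and up to 0.0680 with a library left out (called in 9 of 16 such fits). Whether the transcripts were edited cannot be read from TPM.

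Dlg4, the main scaffold of the postsynaptic density, Snap25, the adaptor protein gene Ywhaq and the G protein gene Gnao1 were called in at least 1 region comparison. Snap25, a SNARE protein that also regulates the removal of GluK5 receptors from the membrane, averaged 8597 ± 589.8 TPM in BLA CTA and 8343 ± 834.9 TPM in BLA taste control, and 13399 ± 1452 TPM in GC CTA and 13300 ± 322 TPM in GC taste control. Gnao1 averaged 747 ± 68.1 TPM in BLA CTA and 774 ± 55.6 TPM in BLA taste control, and 1238 ± 93.6 TPM in GC CTA and 1118 ± 84.0 TPM in GC taste control. Both were called lower in BLA in each training group (limma adjusted p = 0.000983 for Snap25 and 0.0141 for Gnao1 in taste control), whereas Ywhaq was called higher after CTA. Ywhaq averaged 664 ± 144 TPM in BLA CTA and 597 ± 111 TPM in BLA taste control, and 374 ± 57.9 TPM in GC CTA and 399 ± 68.8 TPM in GC taste control (SD, n = 4 each). After CTA the limma adjusted p was 0.00376 for Snap25, 0.00437 for Gnao1 and 0.0208 for Ywhaq, and Dlg4 was called in taste control (adjusted p = 0.0137). None of these lower calls of Snap25, Gnao1 and Dlg4 stood after median-ratio rescaling, where the adjusted p was 0.0660 and 0.0616 for Snap25 after CTA and in taste control, 0.0585 and 0.228 for Gnao1, and 0.0943 for Dlg4 in taste control. Ywhaq was called in both after rescaling (adjusted p = 0.00442 after CTA and 0.0131 in taste control). Over both training groups without rescaling, Snap25, Gnao1 and Dlg4 were each called lower (limma adjusted p = 3.3e-07, 6.72e-06 and 0.00171), where 15.4% of all genes were. After rescaling they were each still called lower (limma adjusted p = 0.000511, 0.00345 and 0.0268). The share of all genes called lower after rescaling is not given here. After quantile normalization Gnao1 was called after CTA and in taste control (adjusted p = 0.00151 and 0.00329), as was Dlg4 in taste control (0.0207). Snap25 was not (adjusted p = 0.748 after CTA and 0.728 in taste control). Quantile normalization gives equal ranks equal values, so it cannot decide for a gene near the top of every library, such as Snap25. With a library left out, Ywhaq after CTA was called in 5 of 8 fits (adjusted p up to 0.0710), Gnao1 in taste control in 6 of 8 (up to 0.0603) and Dlg4 in taste control in 7 of 8 (up to 0.0571).

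Likeness was taken as Pearson r on log2(TPM + 1). The genes that followed each abundant subunit most closely over the 16 libraries were sought among 9434 genes that averaged 10 TPM or more. For Grik2 these were Phf21b (Pearson r = 0.90) and A430107P09Rik (r = 0.90), for Grik3 Uqcrc1 (r = 0.84) and Ctsd (r = 0.82), and for Grik5 Tmem132a (r = 0.89) and Snrnp200 (r = 0.87). Grik2 and Phf21b gave r = 0.77 within the 8 BLA libraries and r = 0.89 within the 8 GC libraries, and Grik3 and Uqcrc1 gave r = 0.92 within BLA and r = 0.56 within GC. The libraries share their amplification and scaling, and the pairs were the best of many, so these values are a description. Grik1 and Grik4, with a mean under 5 TPM, were left out.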

How the data were processed

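Neurons were sorted by hand from male YFP-H mice 4 hr after training, and RNA was amplified (NuGEN Ovation V2) and sequenced as 50 base single-end reads. The authors deposited 2 tables, for BLA and GC, of TPM per gene (31469 rows each), with TopHat and the build mm10 named in the submitters' processing notes. The tool that computed TPM is not given in the sources used here. TPM have the same sum in every library, so read depth is unknown, and a gene's value depends on what the other genes take. The authors' group means, fold changes and p-values were not used. Groups came from the titles and treatments. No 2 libraries held identical values.

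For each comparison, genes that averaged at least 1 TPM were fitted on log2(TPM + 1) with limma 3.58.1 in R 4.3.3 (empirical Bayes with a trend on the mean, Benjamini-Hochberg over all genes fitted). A fold change on this scale understates the change of low genes. For named genes, mean TPM was compared in all 70 arrangements of the libraries (exact permutation test, both sides, numpy 2.4.6). The fits were tested on simulated data. Alternatives were pseudocounts of 0.1 and 5, no filter, a filter at 5 TPM, no variance trend, quantile normalization, median-ratio rescaling, a replicate block, a fit of all 16 libraries, and leaving out each library. The fit over both training groups was added after seeing the data. The members, the partner list and the marker lists were chosen with earlier results of these data known. The 5 subunits, Neto1, Neto2, C1ql2, C1ql3 and Adarb1 were always named, and of the other partners those called. P-values measure the spread between libraries of 1 group. Promoter and gene positions are those of RefSeq (GRCm38.p6) and GENCODE M21 (GRCm38), the same build as mm10.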

Additional observations from a re-analysis of the deposited data

Results flagged for a closer look

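In 8 of 38 groups of 4 libraries tested, 1 library lay far from the other 3 for a kainate subunit's TPM or share, by Dixon's test at the 95% level, which chance alone meets in about 1 group in 20. TPM and shares come from the same values, so the flags are not independent. Grik1 was at 0.91 TPM in BLA CTA library 2, against 0.09 to 0.18 TPM in the other 3. It was at 4.12 TPM in GC CTA library 1, against 0.32 to 0.72 TPM, and at 8.05 TPM in GC taste control library 3, against 0.19 to 0.38 TPM. Its share of the summed subunit TPM stood out in the same 3 libraries, at 0.779%, 1.96% and 3.65%. Grik2 was at 112.83 TPM in GC taste control library 1, against 54.76 to 57.79 TPM in the other 3, and without that library Grik2 was still called between regions over both training groups (log2 fold change -0.56, limma adjusted p = 0.0372). Grik5 made up 22.2% of the subunit TPM in BLA taste control library 3, against 45.1 to 45.7% in the other 3.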

How the results depend on the processing

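The number of genes called between regions was 1203 in taste control and 994 after CTA. With a replicate block it was 750 and 642, and leaving out 1 library at a time gave 677 to 1126 in taste control and 535 to 1113 after CTA. Training called 0 genes in GC, and 0 to 1 with a library left out (1 without GC CTA library 2). Deviations of libraries with the same number correlated between -0.16 and 0.19, and the numbers were not taken as pairs. Between CTA and taste control in GC these correlations were all positive, at 0.051 to 0.19, against a mean of -0.038 for unlike numbers. The block changed no call of a kainate subunit (Grik4 in taste control, adjusted p = 0.00780). Grik4 in taste control, with all BLA libraries at 0, had adjusted p from 0.000352 to 0.00798 under the 17 alternatives run, of which those that leave out a BLA library remove only another 0. After CTA Grik4 was also called in the fit of all 16 libraries (adjusted p = 0.0145) and without BLA CTA library 3. The fit of all 16 pools the spread of every group, and BLA taste control, listed at 0 throughout, adds none. Its call is therefore no further evidence on the CTA libraries. Grik2 was called without BLA CTA library 1 (adjusted p = 0.0392), and Grik3 with no filter (adjusted p = 0.0460), where the cause was not tested. Some log2 fold changes near 0 turned their sign. For Grik1, CTA over taste control in GC was -0.073 with a pseudocount of 5, -0.0091 after median-ratio rescaling and -0.042 after quantile normalization, and BLA over GC in both training groups was 0.38 after quantile normalization. With a library left out the log2 fold change ran from -0.42 to 0.23 for Grik1 and from -0.066 to 0.28 for Grik2 (training in GC), from -0.25 to 0.44 for Grik5 (training in BLA) and from -0.42 to 0.27 for Grik5 (interaction). Between regions it ran from -0.25 to 0.95 for Grik1, from -0.13 to 0.16 for Grik3 and from -0.52 to 0.063 for Grik5 (taste control), and from -0.50 to 0.054 for Grik1 (both training groups). With a filter at 5 TPM no value was had for Grik1 in any comparison or for Grik4 after CTA, in the interaction and over both training groups.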
